A study of Mus musculus with 14 samples.

Results

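Major histocompatibility complex (MHC) class II antigen presentation was followed in mouse epididymal fat through 6 genes: H2-Aa, H2-Ab1, H2-Eb1, Cd74, H2-DMa and Ciita. All probe sets annotated to these genes were taken, which gave 10 of the 22626 probe sets on the array that are not controls, and 6 of the 12393 genes with a symbol. The fat came from 14 ICR mice, an outbred stock, labelled male and 3 weeks old. In the UC group (n = 5) the dam's food was cut by 50% during pregnancy and given freely during suckling. In the UU group (n = 4) the 50% cut ran through both pregnancy and suckling. The CC group (n = 5) had freely fed dams in both periods. The series title concerns accelerated growth after birth and lipogenic genes in mice of low birth weight, so the class II genes were not its named subject. RNA was hybridised to single-channel Affymetrix arrays, and every value below is the deposited signal, a linear intensity scaled to a common level on each array.

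MHC class II molecules are surface proteins that display peptides from engulfed material to helper T cells. Each is a pair of an alpha and a beta chain, assembled with the invariant chain Cd74 and loaded with peptide in endosomes after proteases have trimmed Cd74 away. Macrophages, dendritic cells and B cells are the usual carriers, and fat holds many macrophages. H2-Aa and H2-Ab1 encode the alpha and beta chains of the I-A molecule, and H2-Eb1 the beta chain of I-E, whose partner is H2-Ea. H2-DMa is a chain of H2-M, which exchanges the Cd74 remnant for peptide. Ciita is the coactivator that switches the class II genes on through RFX and NF-Y factors bound to their X and Y boxes. The chain genes are highly polymorphic, and neither the sequence of these mice nor their haplotypes were part of the data.

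The X and Y boxes are shown because they are the elements through which Ciita acts on the chain genes. Promoters of H2-Aa, H2-Eb1 and H2-DMa were found in the RefSeq promoter table of build GRCm38.p6. The 150 bases before the start are given 5′ to 3′ on the gene's own strand for both surface chains, H2-Aa at chr17:34287824-34287973 on the minus strand and H2-Eb1 at chr17:34305717-34305866 on the plus strand. Capitals mark the letters searched for, AGNAACNGA for the X box and ATTGG for the Y box, either of them also as its reverse complement.
H2-Aa: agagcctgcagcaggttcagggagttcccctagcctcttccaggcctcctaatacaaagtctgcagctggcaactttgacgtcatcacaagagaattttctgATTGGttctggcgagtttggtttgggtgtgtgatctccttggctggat
H2-Eb1: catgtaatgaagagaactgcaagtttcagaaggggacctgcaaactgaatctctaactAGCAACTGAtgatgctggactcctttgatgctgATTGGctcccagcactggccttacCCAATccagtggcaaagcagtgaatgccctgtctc

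In the 250 bases searched before each start, H2-Eb1 held an X box beginning at position -92 and a Y box at -59, counted back from the start, and a Y box on the reverse strand at -35. H2-Aa held a Y box at -48, and the X box letters were not in its window. Of the 2 listed starts of H2-DMa, one had a Y box at -198 and the other had neither motif. An X box occurred in 4.42% of 32851 promoters and a Y box in 33.8%, while an X box followed by a Y box within 40 bases occurred in 18 of them (0.0548%). H2-DMb1 and H2-Eb2, other class II chain genes, also had that pair, whereas H2-Oa, H2-DMb2 and H2-Ob had the Y box letters without the X box letters. Only these letters were searched for, so an X box that departs from them would be missed. A promoter without the letters, that of H2-Aa included, was therefore not shown to lack an X box.

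The samples differed in the tissue they carried. The fat markers Fabp4 and Adipoq were bright in every group, with Adipoq at 71999 in UC, 39697 in UU and 67132 in CC on average. Gpx5, made by the epididymal lining, was between 409.6 and 1155 in UC replicates 2 and 5 and CC replicates 2 and 4, and between 5711 and 69624 in the other 10 samples, all UU samples included. UC replicate 5 and CC replicate 2 of these 4 also had Xist, a transcript of female cells, at 5643 and 3981, with the Y-linked gene Eif2s3y at 7.9 and 58.6, against the male label. The 3'/5' ratio of control probe sets, a sign of RNA quality, was highest in UC replicates 1 and 4 and UU replicate 3, at 1.60 to 2.11 on the log2 scale against 0.40 to 1.08 in the rest. The summed signal of liver markers was 93599 in UC replicate 2 and at most 24681 elsewhere, and that of muscle markers was 23938 and 22431 in CC replicates 2 and 5 and at most 4077 elsewhere. For the class II probe sets that entered the test, values are given both with and without the 4 samples low in Gpx5.

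No class II probe set passed the test in any comparison. The test was limma's moderated test on log2(signal + 32) over all 13575 probe sets left after the dimmest 40% were set aside, with a Benjamini-Hochberg adjusted p under 0.05 as the threshold. Of the 10 class II probe sets, 7 entered it, and the dimmest H2-Ab1 probe set and both Ciita probe sets lay below the filter on dim signals. In UU against CC, 0 of 7 passed, as did 0% of all probe sets, and 6 of the 7 had a log2 difference below 0. In UC against CC, 0 of 7 passed with 0% of all probe sets, and 5 of the 7 lay below 0. In UC against UU, 0 of 7 passed with 0.427% of all probe sets (58), and 6 of the 7 lay above 0. The 58 became 0 without UC replicate 2, 4 or 5, 1 without the 4 samples low in Gpx5, between 2 and 5 without any 1 UU replicate, 16 or 17 without CC replicate 3 or 1, 30 or 26 without CC replicate 4 or 5, and 110 or 91 without UC replicate 1 or 3.

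The median difference over the 7 probe sets was -0.54 in UU against CC, beside 0.04 over all probe sets tested. It was 0.51 in UC against UU, beside -0.07 over all, and -0.10 in UC against CC, beside -0.02 over all. Over all 10 class II probe sets, with no filter, the medians were -0.52, 0.41 and -0.14 in the same order of comparisons. The shares of all probe sets below 0 were 45.9% in UU against CC, 58.1% in UC against UU and 53.5% in UC against CC. At an unadjusted p under 0.05, 3 of 7 were lower in UU than in CC, where 8.04% of all probe sets were. At the same threshold 2 of 7 were higher in UC than in UU, where 7.77% of all probe sets were, and 1 of 7 was lower in UC than in CC, where 5.07% of all were. Without the 4 samples low in Gpx5 the medians were -0.18 in UU against CC, 0.35 in UC against UU and 0.01 in UC against CC, and again 0 of 7 passed. In whole fat, fewer cells of a type and less RNA in each cell cannot be told apart.

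**Figure D1:**
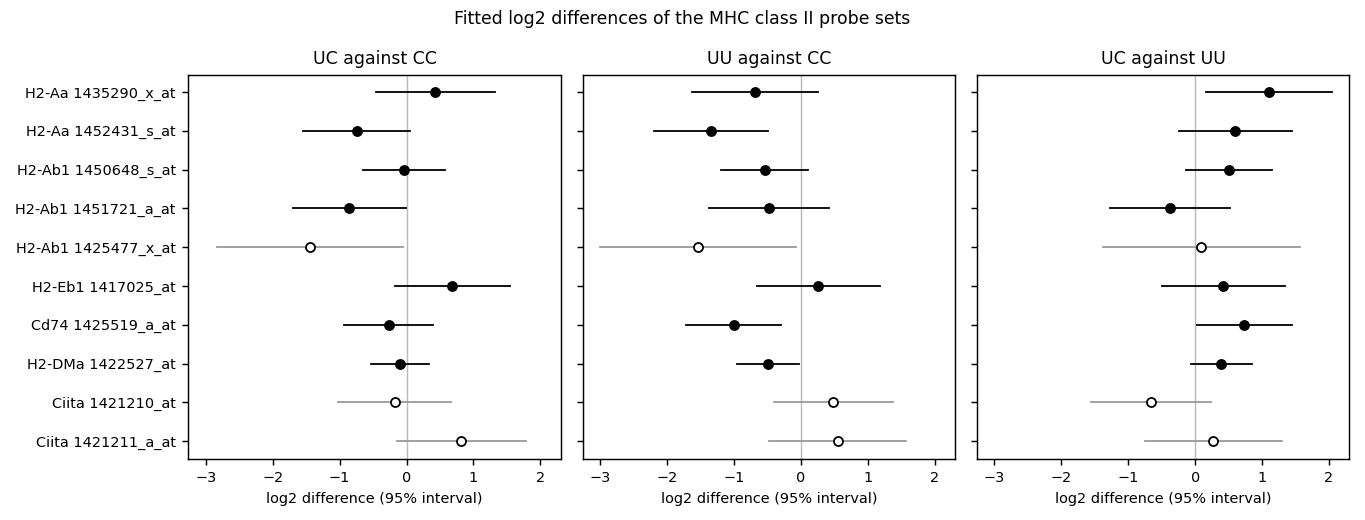
Log2 differences of the class II probe sets in UC against CC, UU against CC and UC against UU (horizontal axis, log2 units), with the 95% interval of limma's fit as bars and open points for the 3 probe sets below the filter. Cd74 and both H2-Aa probe sets lay below 0 in UU against CC, with Cd74 at -1.004, and H2-Eb1 lay above 0 in every comparison, with none past the adjusted threshold.

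H2-Aa, the I-A alpha chain, was read by a pair of probe sets. The brighter one (1435290_x_at) had signals of 8841, 5304, 2146, 5822 and 7833 in UC, of 1914, 2861, 3189 and 2183 in UU, and of 2686, 10628, 3200.3, 5571 and 1998 in CC. In UC, 4 of 5 samples were above every UU sample, while the CC samples spread from the UU range to above every UC sample. Its log2 difference was 1.11 ± 0.44 (SE) in UC against UU (adjusted p = 0.243), -0.68 ± 0.44 in UU against CC (adjusted p = 0.447) and 0.43 ± 0.42 in UC against CC (adjusted p = 0.751). With the 4 samples low in Gpx5 left out, these were 0.94, -0.054 and 0.89. Without CC replicate 2 alone, UU differed from CC by -0.33 and UC from CC by 0.78, and the UC against CC value was 0.25 without UC replicate 1, 0.76 without UC replicate 3 and 0.18 without CC replicate 5.

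The other H2-Aa probe set (1452431_s_at) had 1431, 1691, 1022, 1309 and 2355 in UC, 772.5, 961.5, 879.7 and 1413 in UU, and 2777, 5488, 1799, 4095 and 927 in CC. Here 4 of 5 CC samples lay above every UU sample, and CC replicate 5 fell among the UU samples. The difference was -1.34 ± 0.40 in UU against CC, with an unadjusted p of 0.00398 and an adjusted p of 0.157, the smallest adjusted p of any class II probe set in the 3 comparisons. It was -0.74 ± 0.38 in UC against CC (adjusted p = 0.561) and 0.60 ± 0.40 in UC against UU (adjusted p = 0.463). Without the 4 samples low in Gpx5 the values were -0.75, -0.42 and 0.33, and the UC against CC value was -0.47 without CC replicate 2 alone. In UC against CC both H2-Aa probe sets thus had opposite signs.

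H2-Ab1, the I-A beta chain, was read by 3 probe sets. The brightest (1450648_s_at) had 2333, 1732, 1742, 1999 and 3674 in UC, 892, 1854, 1477 and 2293 in UU, and 2098, 3351, 1716, 3216 and 1501 in CC. The groups overlapped, with the highest sample in UC and the lowest in UU. Its differences were -0.54 ± 0.31 in UU against CC (adjusted p = 0.391), 0.51 ± 0.31 in UC against UU (adjusted p = 0.419) and -0.03 ± 0.29 in UC against CC (adjusted p = 0.982). Leaving out the 4 samples low in Gpx5 gave -0.18, 0.38 and 0.19. Without UU replicate 1 alone, UU differed from CC by -0.29 and UC from UU by 0.25, and the UC against UU difference was 0.32 without UC replicate 5.

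The second H2-Ab1 probe set (1451721_a_at) had 303, 447, 279, 375 and 1385 in UC, 424.5, 601, 654 and 812 in UU, and 698, 1157, 506, 1727 and 651 in CC. In UC, 4 of 5 samples were below every CC sample, and UC replicate 5 stood above all but 1 of the other samples. This probe set differed by -0.86 ± 0.40 in UC against CC (unadjusted p = 0.0472, adjusted p = 0.537), by -0.48 ± 0.42 in UU against CC (adjusted p = 0.576) and by -0.38 ± 0.42 in UC against UU (adjusted p = 0.675). It was the only 1 of the 7 below 0 in UC against UU. In the 10 samples left after removing those low in Gpx5, UC differed from CC by -0.89, UU from CC by -0.012 and UC from UU by -0.88. With 1 array left out, the UU against CC value was -0.23 without CC replicate 4 and -0.32 without UU replicate 1. The UC against UU value was -0.76 without UC replicate 5, and -0.24, -0.21 and -0.25 without UC replicate 1, UC replicate 3 and UU replicate 4 in turn. The third (1425477_x_at), below the filter, had 82, 436, 60.8, 85.9 and 685 in UC, 95.3, 257, 43.9 and 516 in UU, and 367, 938, 408, 1221 and 259 in CC. No CC sample was under 258.9, while 3 UC and 3 UU samples were, 5 of them at 43.9 to 95.3 and UU replicate 2 just under it at 256.6. In the fit without a filter it differed by -1.44 ± 0.65 in UC against CC (adjusted p = 0.605) and by -1.54 ± 0.69 in UU against CC (adjusted p = 0.375).

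H2-Eb1, the I-E beta chain, had 3801, 1971, 1161, 2641 and 4795 in UC, 2074, 1834, 1724 and 2008 in UU, and 732, 3589, 2659, 984 and 1422 in CC. The 4 UU samples lay close together, within the ranges of both other groups, and the lowest values were CC replicates 1 and 4. Its log2 differences were 0.69 ± 0.41 in UC against CC (adjusted p = 0.605), 0.26 ± 0.43 in UU against CC (adjusted p = 0.780) and 0.42 ± 0.43 in UC against UU (adjusted p = 0.645). Removing the 4 samples low in Gpx5 gave 0.68, 0.43 and 0.25. In UU against CC the value was -0.0079 without CC replicate 1, 0.55 without replicate 2, 0.45 without replicate 3 and 0.095 without replicate 4. In UC against UU it was 0.70 without UC replicate 3 and 0.20 without UC replicate 5, and in UC against CC 0.42 without CC replicate 1. H2-Eb1 was the one class II probe set in the test above 0 in UU against CC. Its partner chain gene H2-Ea was dim, at 200.4 ± 24.6 in UC, 221 ± 60.7 in UU and 188 ± 64.6 in CC (SD), and lay below the filter.

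Cd74, the invariant chain, was the brightest of the 10 probe sets, at the 90.3 percentile of mean level. It had 5188, 5289, 2818, 4140 and 6384 in UC, 2217, 2659, 2549 and 3793 in UU, and 5912, 10460, 3396, 8176 and 3036 in CC. All UU samples except replicate 4 were below every CC sample, and 4 of 5 UC samples were above every UU sample. The mean signal was 2805 ± 685 in UU and 6196 ± 3162 in CC (SD), a log2 difference of -1.004 ± 0.33 with a 95% interval of -1.71 to -0.29 (unadjusted p = 0.00862, adjusted p = 0.183). In UC against UU it was 0.73 ± 0.33 (unadjusted p = 0.0435, adjusted p = 0.296), and in UC against CC -0.27 ± 0.32 (adjusted p = 0.802). Without the 4 samples low in Gpx5 these were -0.51, 0.51 and -0.0034, and the UC against CC value ran from -0.48 (CC replicate 5) to -0.041 (CC replicate 2) with 1 array left out in turn.

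H2-DMa, the H2-M alpha chain, had 673, 559, 509, 527 and 677 in UC, 448, 463, 379 and 468.5 in UU, and 650, 571, 537, 983 and 502 in CC. Every UU sample was below every UC and every CC sample. H2-DMa was the 1 of 7 with such a gap, which 3.61% of all probe sets showed with UU under CC and 2.9% with UC over UU. Its differences were small, at -0.49 ± 0.22 in UU against CC (unadjusted p = 0.0368, adjusted p = 0.282), 0.39 ± 0.22 in UC against UU (adjusted p = 0.375) and -0.10 ± 0.20 in UC against CC (adjusted p = 0.898). They were -0.33, 0.35 and 0.01 without the 4 samples low in Gpx5.

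Ciita was dim. One probe set (1421210_at) had 51.7, 230.4, 254, 294 and 435 in UC, 343, 256, 554 and 351 in UU, and 278, 195, 178, 327 and 301 in CC. The other (1421211_a_at) had 489, 271, 273.5, 296 and 123.5 in UC, 208, 223, 314 and 150.1 in UU, and 68.3, 35.3, 206.5, 186.1 and 376 in CC. The groups overlapped on both, and both lay in the dimmest 40% of the array. In the fit without a filter the differences in UU against CC were 0.49 ± 0.42 and 0.55 ± 0.48, opposite in sign to Cd74 and H2-Aa, and in UC against CC they were -0.18 ± 0.40 and 0.82 ± 0.46 (adjusted p = 0.935 and 0.667).

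**Figure D2:**
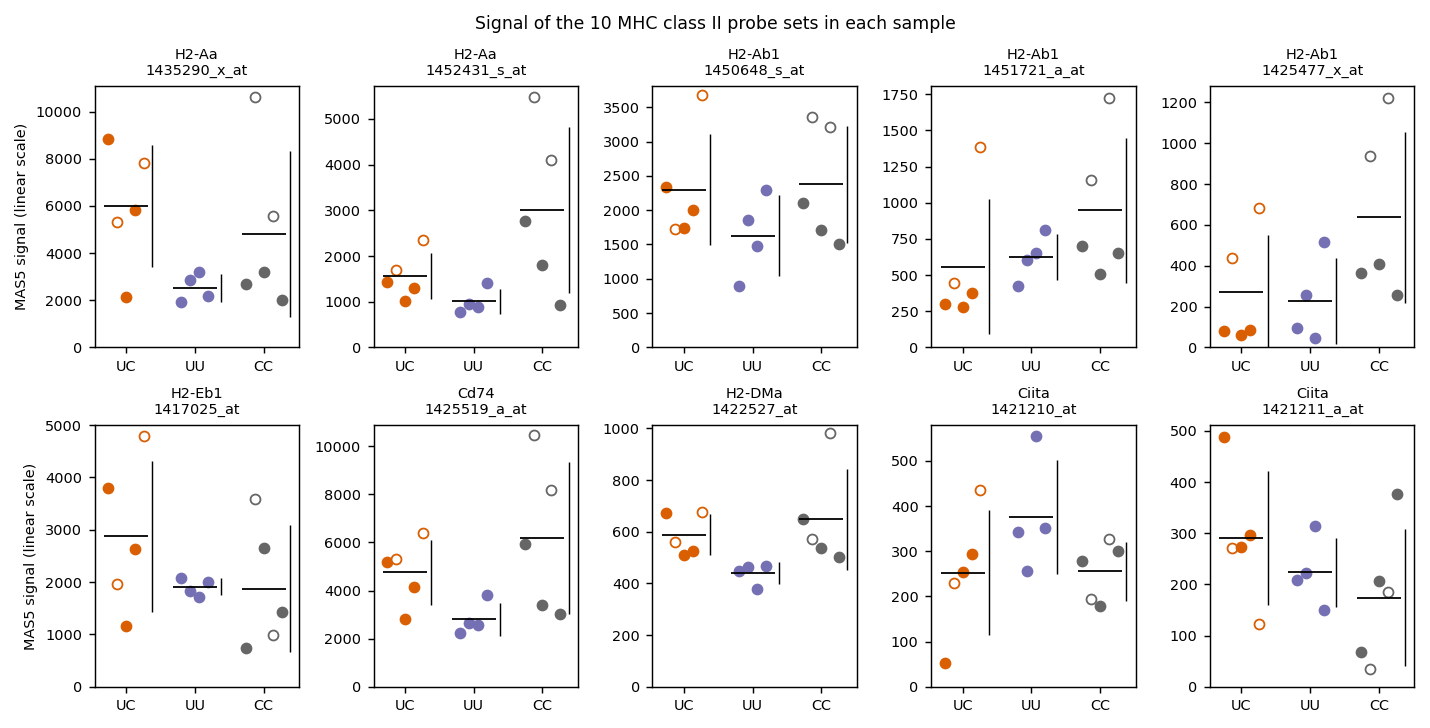
Signal of each class II probe set (vertical axis, linear intensity) in every UC, UU and CC sample, with the group mean as a line and the SD as a bar cut at 0. Open circles are the 4 samples low in the epididymal marker Gpx5, and H2-DMa is the panel where all UU points lie under all others.

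Most of the class II probe sets tended to be high in the same samples. Over the 14 arrays, which share their scaling, the 21 pairs among the 7 probe sets correlated from -0.08 to 0.949 with a median of 0.65, given as a description. These pairs include probe sets of the same gene, at 0.65 for H2-Aa and 0.65 for H2-Ab1. H2-Eb1 followed the others least. Its r was 0.614 with H2-Aa 1435290_x_at, and from -0.08 with H2-DMa to 0.279 with H2-Ab1 1450648_s_at for the rest. CC replicate 2 was the highest sample on 3 of the 7 and among the 3 highest on 6. UC replicate 5 was highest on 2 and CC replicate 4 on 2, and UU replicate 1 was among the 3 lowest on 5. These high samples, CC replicates 2 and 4 and UC replicate 5, were all among the 4 low in Gpx5. CC replicate 2 and UC replicate 5, each with a mean rank of 2.29 over the 7 probe sets (1 is highest), were also the samples with Xist signal against the male label. The part of sex or of tissue in their class II level was not tested.

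The 3'/5' ratio of the control probe sets was set against the gap between probe sets of one gene, a comparison chosen after the values were seen. For H2-Aa the log2 ratio of 1435290_x_at over 1452431_s_at was 1.82 ± 0.58 in UC, 1.31 ± 0.52 in UU and 0.65 ± 0.46 in CC (SD). Over the 14 samples it correlated with the 3'/5' ratio (Pearson r = 0.720, permutation p = 0.00384, adjusted over 3 relations 0.0115). Spearman's rho was 0.613 (permutation p = 0.0217, adjusted 0.0652), and r was 0.667 without UU replicate 3 and UC replicate 1, the samples farthest from the median ratio. For H2-Ab1, 1450648_s_at over 1451721_a_at gave r = 0.374 (permutation p = 0.199, adjusted 0.199) and rho = 0.411 (permutation p = 0.142, adjusted 0.183), with r = 0.612 without those samples. For 1450648_s_at over the dim 1425477_x_at, r was 0.705 (permutation p = 0.00824, adjusted 0.0124), rho 0.380 (permutation p = 0.183, adjusted 0.183), and r 0.470 without them. The groups differ in both quantities, so group means were removed from each and samples permuted within groups. The correlation was then 0.622 for H2-Aa (permutation p = 0.0330, adjusted 0.0989), 0.255 (permutation p = 0.364, adjusted 0.364) for H2-Ab1 over 1451721_a_at and 0.586 (permutation p = 0.0759, adjusted 0.114) for H2-Ab1 over 1425477_x_at, none of which passed adjustment. Adjusted for the 3'/5' ratio, the H2-Aa differences in UC against CC were 0.03 on 1435290_x_at and -0.78 on 1452431_s_at, and in UU against CC -1.03 and -1.37. By Affymetrix naming, an x_at probe set can also bind other transcripts and an s_at probe set reads several, and its part in these gaps was not tested.

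**Figure D3:**
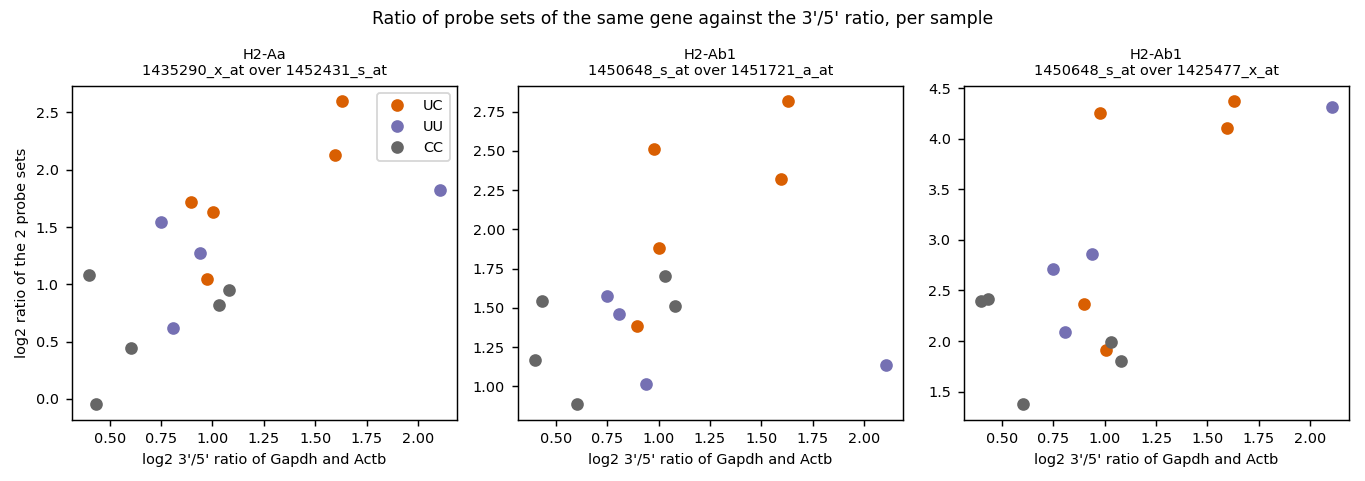
Log2 ratio between probe sets of the same gene (vertical axis) against the log2 3'/5' ratio of control probe sets (horizontal axis), each point 1 of 14 arrays, coloured by UC, UU or CC. The H2-Aa ratio tended to be higher where the 3'/5' ratio was higher (Pearson r = 0.720). With group means removed r was 0.622, which did not pass adjustment. UU replicate 3 lay farthest to the right at 2.11.

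Genes that work beside the class II chains were counted from lists. Of 9 genes for the endosomal proteolysis that prepares Cd74 and peptides, 0 passed in any comparison, 8 lay below 0 in UU against CC (median -0.78) and 8 lay above 0 in UC against UU (median 0.54). In UU against CC the 3 of smallest p were Ctsd, an aspartic protease, at -0.98 ± 0.26 (adjusted p = 0.127), Ctsb at -0.78 ± 0.22 (adjusted p = 0.149) and Ctsl at -0.66 ± 0.19 (adjusted p = 0.149), both cysteine proteases. In UC against UU, Ctsb was at 0.84 ± 0.22 (adjusted p = 0.114). The medians without the 4 samples low in Gpx5 were -0.53 and 0.33, and the UC against CC median was -0.17 with all samples.

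Those factors acting with Ciita at the X and Y boxes that entered the test had the other sign. Of the 5 tested of 7 listed, 0 passed, and all 5 lay above 0 in UU against CC (median 0.39), with Rfx5 at 0.39 ± 0.16, Nfyb at 0.51 ± 0.20 and Nfyc at 0.41 ± 0.13 (adjusted p from 0.174 to 0.255). In UC against UU all 5 lay below 0, with a median of -0.37. Below the filter, Rfxap, of the RFX factors, went the other way, with means of 294 in UU, 438 in CC and 481 in UC. Creb1, also below it, averaged 502 in UU, 438 in CC and 443 in UC. In the list of other class II chains and peptide loading, the 1 gene tested, H2-DMb2, an H2-M beta chain, was at 0.61 ± 0.31 in UC against UU and -0.37 in UU against CC.

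Genes of MHC class I presentation, the pathway for peptides made inside the cell, also had 0 of 13 past the test, with 11 of 13 below 0 in UU against CC and a median of -0.33. The peptide transporter Tap1 was at -1.04 ± 0.33 (adjusted p = 0.171), its partner Tap2 at -0.99 ± 0.34 and the immunoproteasome subunit Psmb8 at -0.83 ± 0.27 in UU against CC. In UC against UU the median was 0.15, with B2m, the light chain of class I, at 0.75 ± 0.23 (adjusted p = 0.157). Interferon gamma signalling, which induces Ciita, had 0 of 6 past the test and medians of -0.15 in UU against CC, 0.06 in UC against UU and 0.12 in UC against CC. Without the samples low in Gpx5 the first of these medians turned to 0.044 and the second to -0.063. Its kinases Jak1 and Jak2 had opposite signs in UU against CC, at -0.41 ± 0.18 and 0.48 ± 0.18, and Irf8, a transcription factor of myeloid cells, was at 0.65 ± 0.23 in UC against UU. Of the ubiquitin ligases and costimulators, Icosl and Cd83 were the 2 tested, and 0 passed.

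**Figure D4:**
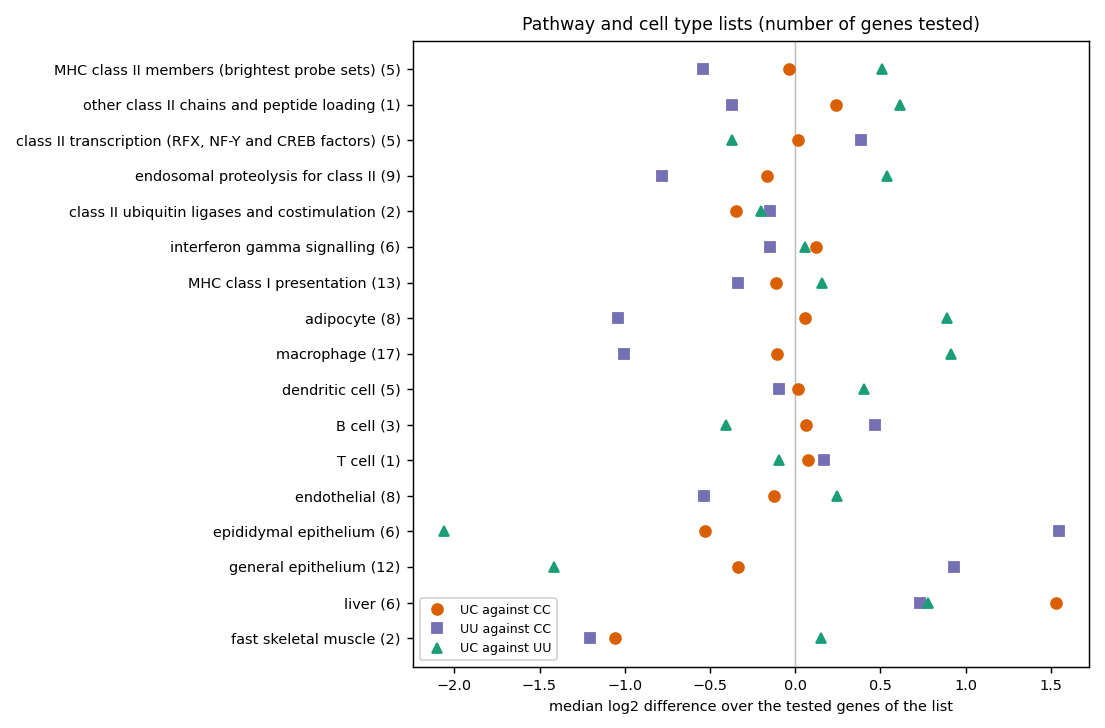
Median log2 difference (horizontal axis) of the class II genes, the pathway lists and the cell type marker lists in UC against CC, UU against CC and UC against UU. In UU against CC the macrophage list lay at -1.004 and the endosomal proteolysis list at -0.78, on the same side of 0 as the class II genes. The adipocyte list (-1.04) and the endothelial list (-0.54) lay there too, while the class II transcription list (0.39) and the B cell list (0.47), among others, lay above 0.

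Markers of the cells that carry class II were set beside these values. Macrophage markers, 17 tested of 20, had a median of -1.004 in UU against CC (14 of 17 below 0, 0 passed) and 0.91 in UC against UU (14 of 17 above 0). There 1 passed, Mrc1, a macrophage scavenging receptor that was higher in UC, at 1.17 ± 0.21 (adjusted p = 0.0383), in the comparison whose calls fell to 0 without UC replicate 2, 4 or 5. Without the 4 samples low in Gpx5 the medians were -0.42 and 0.46. The summed macrophage signal ran from 42614 to 106906 in UC, from 25677 to 47517 in UU and from 45880 to 119080 in CC, with the highest sums in CC replicate 2, UC replicate 5 and CC replicate 4, the samples that were also highest in class II. Csf1r was a large part of these sums (means 28373 in UC, 11873 in UU and 21781 in CC). The part of the macrophage markers in the class II differences was not tested.

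Dendritic cell markers, 5 tested, had a median of -0.09 for UU against CC, while that for UC against UU was 0.40, with summed signals of 11054 to 18568 in UC, 8054 to 11851 in UU and 9475 to 19056 in CC, of which Fscn1 was a large part (means 11217 in UC, 7360 in UU and 8974 in CC). Without the samples low in Gpx5 the medians were 0.20 and 0.15, with the UU against CC sign turned. B cell markers, 3 tested, had a median of 0.47 for UU against CC, while that for UC against UU was -0.41. Their sums were 3197 to 5362 in UC, 5045 to 8165 in UU and 3166 to 6315 in CC. Blnk was a large part of these sums (means 1370 in UC, 3254 in UU and 1965 in CC). Its signal was 346 and 720 in UC replicates 2 and 5 and 520 and 644.5 in CC replicates 2 and 4, the samples low in Gpx5. Without those samples the B cell medians were 0.34 and -0.54. The defining B cell gene Cd79a averaged 307 in UC, 391 in UU and 301 in CC, and Cd79a, Cd79b, Cd3d, Cd3e, Cd3g and Cd4 all lay below the filter. Adipocyte markers, 8 tested, had a median of -1.04 for UU against CC, while that for UC against UU was 0.89, beside 1.55 and -2.06 for 6 epididymal markers, 0.93 and -1.42 for 12 general epithelial markers, and -0.54 and 0.24 for 8 endothelial markers. Without the 4 samples low in Gpx5, all in UC or CC, the epididymal medians were -1.26 and 0.0095 and the general epithelial ones -0.058 and -0.59. The adipocyte medians were then -0.80 and 0.66, and the endothelial ones -0.32 and 0.08. T cell markers had 1 tested, Zap70, at 0.17 in UU against CC. Liver markers, 6 tested, had a median of 1.53 in UC against CC, with 6 of 6 above 0. Their median was 0.73 for UU against CC, while that for UC against UU was 0.78. The 2 muscle markers tested, Acta1 and Ckm, had a median of -1.06 in UC against CC and -1.21 in UU against CC. In UU against CC their signs were opposite, with Acta1 at -2.63 ± 1.04 and Ckm at 0.21 ± 0.57. Acta1 was 7453 and 9065 in CC replicates 2 and 5, and 512.9, 602.1 and 193.1 in CC replicates 1, 3 and 4.

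The genes whose pattern was most like the class II pattern were ranked by Pearson's r with the mean standardised log2 profile of the 7 probe sets over the 14 arrays, as a description. They were Lyl1 (r = 0.949), a transcription factor of blood cells, Lyz1 (0.935), a lysozyme, Tyrobp (0.930), an adaptor of myeloid receptors, Gbp2 (0.928) and Iigp1 (0.923), interferon-induced GTPases, S100a6 (0.914), a calcium-binding protein, Ccl6 (0.912), a chemokine, Fstl1 (0.904), a secreted glycoprotein, Adgre1 (0.894), the macrophage surface protein F4/80, and Pcbd2 (0.894). Tyrobp and Adgre1 are also in the macrophage list, and Lyz1 is close in sequence to Lyz2 of that list, so their probe sets may share signal. Without the 4 samples low in Gpx5 the same r values over 10 arrays ran from 0.637 for Fstl1 to 0.828 for Tyrobp.

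**Figure D5:**
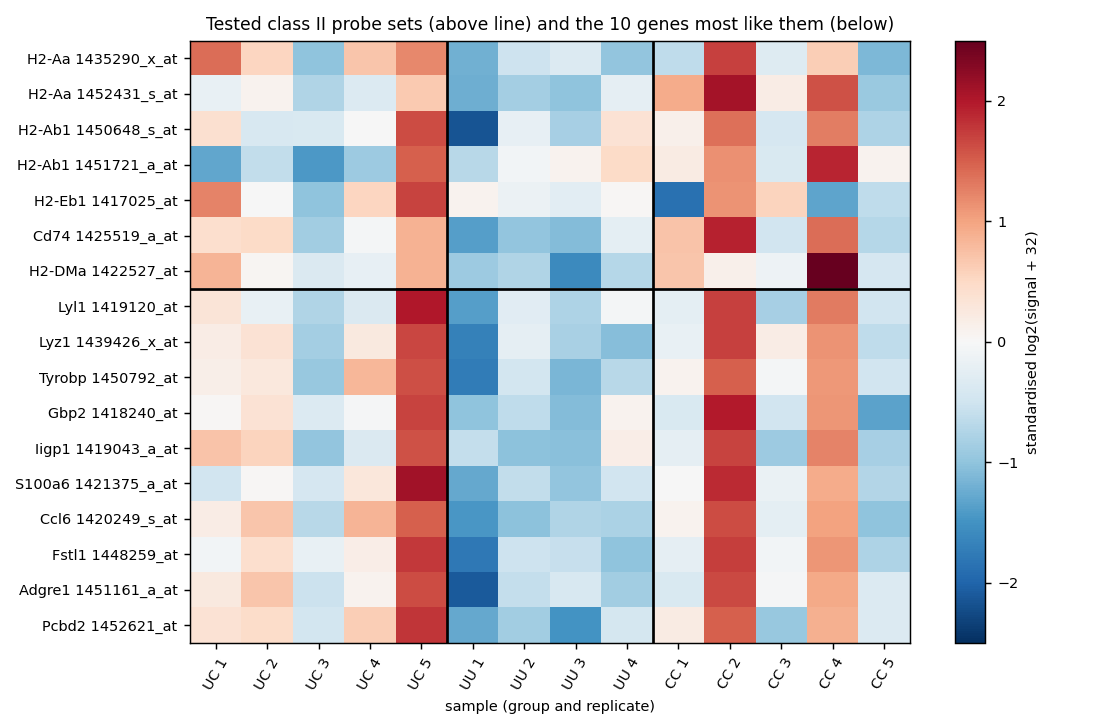
Heat map of log2(signal + 32), standardised over the 14 arrays (colour scale, in SD units), for the 7 tested class II probe sets above the horizontal line and the 10 genes most like them below it, with UC, UU and CC samples from left to right. CC replicates 2 and 4 and UC replicate 5 are the reddest columns for most of these genes, with H2-Eb1 blue in CC replicate 4.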

How the data were processed

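RNA from epididymal fat of 14 mice was measured on single-channel Affymetrix arrays. Per the submitters' processing notes, GCOS 1.3 and MAS5 gave the deposited intensity of each probe set, which is linear and not logged. Trimmed means (2% at each end) lay between 1500.45 and 1500.57, the lowest value was 0.2, and no 2 arrays were identical (log2 correlations within groups 0.877 to 0.951). Detection calls, scan dates and litters were not used here. Groups follow the group assignment in the labels, which do not say whether mice were littermates. The p-values rest on the spread between these samples. If mice of a group shared a litter, that spread would leave out differences between litters, and the p-values could be too small.

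Of 22690 probe sets, 20380 had 1 symbol in GEO's platform annotation, 691 had several, 1555 had none and 64 were control probe sets. A RefSeq gene table gave the current symbol for 20351, and 29 kept theirs. No class II probe set had several symbols. Values were taken as log2(signal + 32), so fold changes of dim genes are understated, and 13575 probe sets remained after the dimmest 40% by mean were removed. One model over all 14 arrays was fitted with limma 3.58.1 (R 4.3.3, empirical Bayes with trend) with 3 two-sided contrasts, Benjamini-Hochberg adjusted over all probe sets. The median SE was 0.22 in UC against CC and 0.23 in both comparisons with UU, and the number of arrays limits the precision. The fit was tested on simulated arrays. Permutation tests used scipy 1.17.1 with 100000 resamples, two-sided, and figures matplotlib 3.10.9.

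The class II genes, pathway lists and marker lists were chosen with earlier results of these data known. Every class II probe set was named, then up to 3 genes of smallest p per pathway list and comparison, and the 2 brightest markers of a list discussed. Some of both kinds are left out of the text. The 10 genes most like the class II profile were also named. Cd79a and the other dim lymphocyte markers, Rfxap, Creb1, the 4 samples low in Gpx5, Xist, the 3'/5' ratio and Mrc1 were singled out after values were seen. Replicate numbers were not used to pair the samples in the main fit. Of 13 same-numbered pairs, 6 correlated over 0.1 (range -0.249 to 0.401), with UC and CC replicates 1, 2 and 3 at 0.33, 0.40 and 0.37. Differently numbered pairs were not set beside them, so these values cannot settle whether the numbers mark a shared batch or litter. Alternatives covered the pseudocount, the filter, scaling, probe set choice, variance model, array weights, groups fitted, replicate block, threshold and each array left out, and, chosen after seeing the data, fits without or adjusted for the doubted samples, epididymal level or 3'/5' ratio, and the probe set ratio correlation with group means removed.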

Additional observations from a re-analysis of the deposited data

Results flagged for a closer look

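Of 30 checks of a class II probe set within 1 group, 1 had a sample far from the rest of its group: H2-Ab1 (1451721_a_at) had a signal of 1385.1 in UC replicate 5, against 278.7 to 446.6 in the other UC samples, a gap of 0.715 of the group's range. The threshold is Dixon's 95% critical value, by which chance gives about 1 such gap in 20 groups, and the probe sets share their arrays. The same sample had Xist signal and a low Gpx5 signal, and the part of either in this value was not tested.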

How the results depend on the processing

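Across the 31 alternatives, among them a threshold of 0.1 in place of 0.05, the count of class II probe sets past the threshold was 0 in each comparison. The smallest adjusted p-values from limma were 0.298 in UC against CC, 0.0968 in UC against UU (H2-Aa 1435290_x_at without UC replicate 3) and 0.0974 in UU against CC (H2-Aa 1452431_s_at without CC replicate 5). Of 615 estimates for single probe sets, 603 had the direction of the reported fit and 12 had the other. For H2-Ab1 1450648_s_at in UC against CC (-0.03) these were 0.027 with median centring, 0.0064 with quantile normalization, 0.040 with array weights, 0.19 without the 4 samples low in Gpx5, and 9.12e-05 to 0.11 without UC replicate 2, 3 or 4 or CC replicate 2 or 4 (range -0.22 to 0.11 with each replicate left out). For H2-DMa in UC against CC (-0.10) they were 0.054 without CC replicate 4 (range -0.18 to 0.054) and 0.014 without the 4 samples, and for H2-Eb1 in UU against CC (0.26) -0.0079 without CC replicate 1 (range -0.0079 to 0.55). The cause was not tested. The median over the class II probe sets ranged from -0.69 to -0.18 in UU against CC, from 0.32 to 0.70 in UC against UU and from -0.22 to 0.20 in UC against CC. With the replicate number as a block the medians were -0.52, 0.49 and -0.10 and 0 class II probe sets passed. Calls over all probe sets in UC against UU (58) were 16 with no filter, 91 with the dimmest 60% left out, 132 with median centring, 14 without the trend, 1 with only both groups fitted, 151 with the 3'/5' ratio and 0 with the epididymal level as covariate, 1 without the samples with Xist signal, 3 without those of highest 3'/5' ratio, and 189 at an adjusted p under 0.1. In UU against CC (0) they reached 29 with array weights, 23 at an adjusted p under 0.1, 9 without UU replicate 4, 6 with the epididymal level and 5 with the block.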
